A study of Mus musculus with 6 samples.

Results

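The comparison set the untreated Mili knockout library against the untreated Hen1 knockout library of cultured mouse spermatogonial stem cells. These are 2 of the 6 small RNA libraries of the series and were chosen by their labels, with 1 library per group. The knockouts are labelled mili-/- and mhen1-/-. Both lines go back to cells of a 15-day-old F1 male of C57BL/6 and DBA2 (the strain label reads C57BL/6) that carried an actin-EGFP transgene. Both were grown on MEF feeders, made with a plasmid for spCas9 and sgRNAs, and picked as colonies checked by Sanger sequencing, so each may stand for 1 clone. Total RNA with spike-ins was sequenced, and neither library had NaIO4 oxidation. An antibody pull-down of MILI from wild type cells of the same source served to say which sequences MILI binds, to choose source genes and as a reference for 3′ ends and first bases. It is no side of the comparison, and neither is the untreated wild type library, whose values are named where they are given.

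piRNAs are germ line small RNAs that guide Piwi proteins to transposon and other transcripts. MILI, encoded by Piwil2, is the Piwi protein that binds piRNAs of spermatogonia. A precursor RNA is cut, its 5′ end is held by the Piwi protein with a preference for uridine as first base, and the 3′ end is trimmed back to the edge of the protein. Hen1, encoded by Henmt1, then methylates the 2′ hydroxyl of the last ribose, a mark known to shield small RNAs from trimming and from the addition of untemplated bases. In the ping-pong cycle a Piwi protein slices a target RNA opposite base 10 of its piRNA, which gives a partner piRNA with a 10 nt overlap of 5′ ends and often an adenine at position 10. The contrast thus sets cells without the binding protein beside cells without the end methylation. Mammalian microRNAs carry no such methyl group and do not need MILI.

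Reads of 18 to 35 nt numbered 4808088 in the Mili knockout and 11702714 in the Hen1 knockout. They held 234312 and 2615586 distinct sequences, or 20.5 and 4.47 reads per sequence. Levels are given per 1000000 such reads (RPM), or per 1000000 microRNA reads where microRNA RPM is named, and intervals in brackets are 95% intervals that cover counting error only, since PCR copies of a molecule were not told apart. With 1 library per group there was no spread between replicates and no test. In bulk libraries, fewer cells of a type and less RNA per cell cannot be told apart. Small RNA reads do not measure the edited genes or their mRNAs, so they give no check of the knockout labels.

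The Mili knockout library lacked the piRNA-sized peak that dominated the Hen1 knockout library. Reads of 25 to 31 nt made up 19.2% of the Mili knockout library and 62.0% of the Hen1 knockout library, a 3.23-fold lower share (3.22 to 3.24). Set against microRNA reads the gap was 15.0-fold. Reads of 20 to 24 nt, the size of microRNAs, made up 64.0% and 26.1%, 2.45-fold higher in the Mili knockout, but per microRNA read they were 1.89-fold lower there. The 3 most frequent lengths were 21, 22 and 23 nt in the Mili knockout, with 17.6%, 19.8% and 17.7% of reads, and 26, 27 and 28 nt in the Hen1 knockout, with 13.1%, 14.9% and 11.3%. Reads of 32 to 35 nt had like shares, 11.8% and 10.1%.

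Among unclassed reads that match a longer transcript, the Hen1 knockout had a peak and the Mili knockout was nearly flat. The Hen1 knockout held 80911 RPM of such reads at 26 nt and 85856 at 27 nt. The Mili knockout held 1334 and 1413 there, a difference of 60.6-fold (59.2 to 62.2) at 26 nt. Away from the peak the difference was smaller, 15.0-fold at 24 nt and 18.4-fold at 29 nt. At 18 nt the Mili knockout was the higher library.

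**Figure D1:**
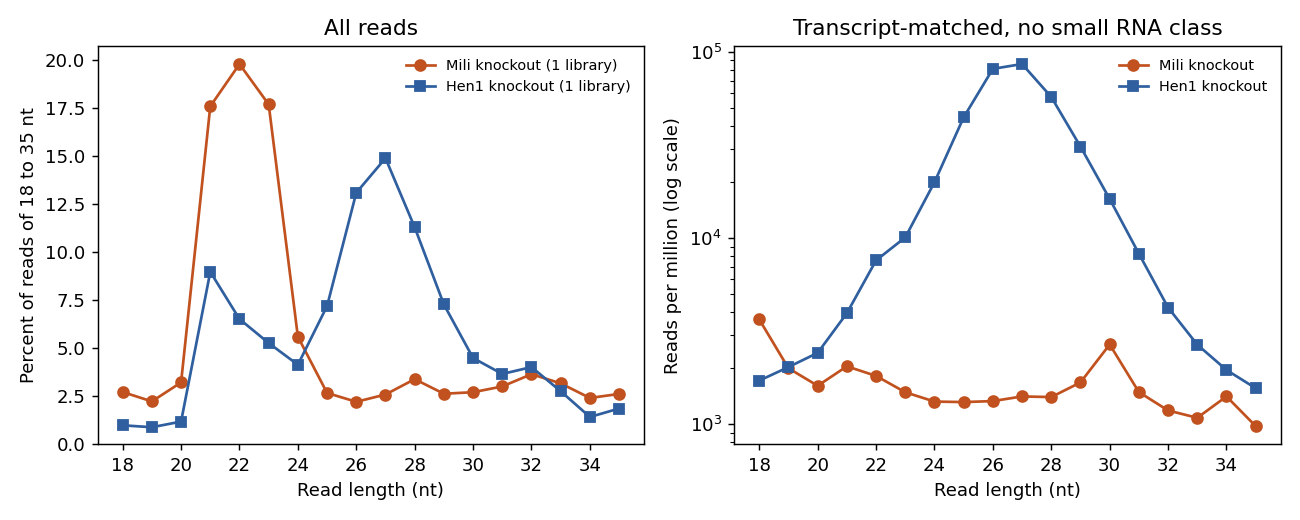
Left, percent of all reads of 18 to 35 nt (y) at each read length in nt (x). Right, RPM on a log scale (y) at each length for reads that match a transcript and no small RNA class. Each line is 1 library: the Hen1 knockout peaks at 26 to 28 nt in both panels, and the Mili knockout peaks at 21 to 23 nt on the left and stays low at 25 to 31 nt on the right.

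Reads of 25 to 31 nt with no annotated small RNA class were called piRNA-like, and they made up 12.6% of the Mili knockout and 59.3% of the Hen1 knockout library, 4.70-fold lower (4.69 to 4.71). They fell into 3 sets of unlike behaviour. Those that match a transcript were 1.13% of the Mili knockout library (54445 reads) and 32.4% of the Hen1 knockout library (3788866 reads), 28.6-fold lower (28.4 to 28.8). Those with no transcript match were 5.07% and 21.3%, 4.20-fold lower. Since matching was exact, microRNA forms with an added base can fall into this set. Among them, miR-182-5p with an added T had 9228 reads in the Mili knockout and 3497 in the Hen1 knockout. The last set, called long fragments, shares 16 bases with unannotated sequences of 32 to 35 nt that are abundant in wild type cells, and it was set apart after the data were seen. At 25 to 31 nt it made up 6.4% and 5.59%, so it was 1.14-fold higher in the Mili knockout, but 4.05-fold lower per microRNA read.

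What remained of the piRNA size range in the Mili knockout lay mostly outside the transcript-matched set. Of its reads of 25 to 31 nt, 33.3% were long fragments, 26.4% piRNA-like reads without a transcript match, 12.9% snRNA and snoRNA, 7.22% rRNA and 5.90% transcript-matched piRNA-like reads. In the Hen1 knockout the transcript-matched reads alone made up 52.2% of that window, with 34.4% piRNA-like reads without a match, 9.02% long fragments and 1.30% snRNA and snoRNA.

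**Figure D2:**
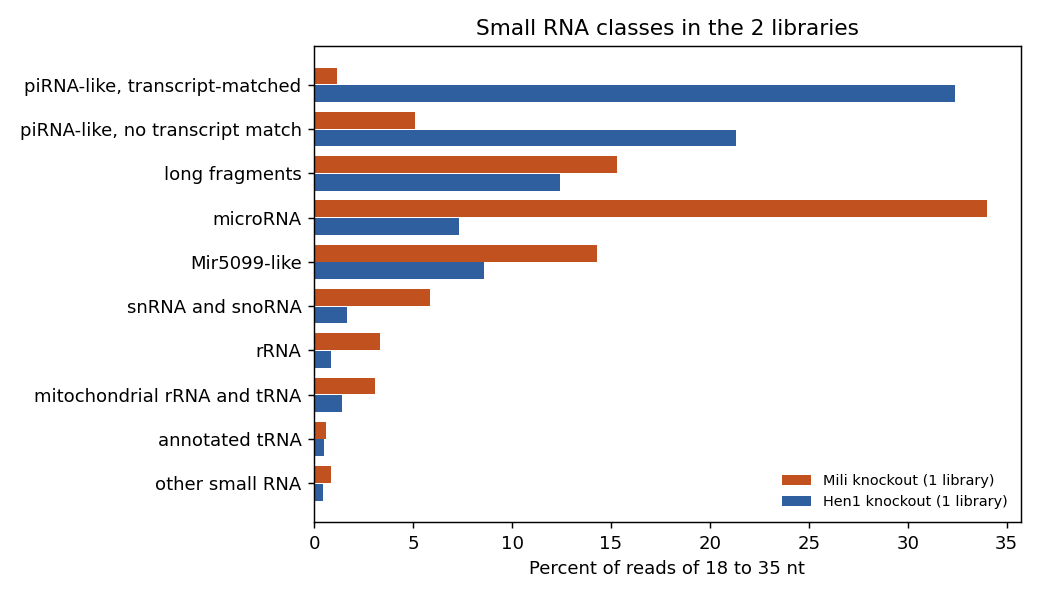
Percent of reads of 18 to 35 nt (x) in each small RNA class (y), 1 bar per library. The transcript-matched piRNA-like bar is 1.13% in the Mili knockout and 32.4% in the Hen1 knockout, while the microRNA bar is 34.0% and 7.34%.

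Transcript-matched sequences that MILI binds in wild type cells were present in the Hen1 knockout and nearly absent from the Mili knockout. Read totals of other pulled-down sequences differed far less. The MILI pull-down gave 10 reads or more to 173535 transcript-matched piRNA-like sequences. They drew 1439791 reads in the Hen1 knockout, 12.3% of the library, and 10979 reads in the Mili knockout, 0.228%, a 53.9-fold lower share (52.9 to 54.9). Of these Mili knockout reads all but 1997 came from 1 gene, Rmrp, the RNA of the RNase MRP complex. Without Rmrp the Hen1 knockout had 1435060 reads and the gap was 295-fold (283 to 309). Among the sequences more frequent in the pull-down than in wild type total RNA, 975 reads stood against 1169074, 493-fold lower (463 to 525). Without the transcript requirement the set had 211450 sequences and the gap was 3.04-fold. Its long fragments were 5.29% of the Mili knockout and 4.92% of the Hen1 knockout library. Its remaining sequences without a transcript match had 55575 and 357042 reads, 2.64-fold lower (2.62 to 2.66).

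Detection of the transcript-matched sequences showed the same contrast. The Mili knockout held 491 of the 173535 sequences, 0.283%, and the Hen1 knockout 107886, 62.2%. At the read depth of the Mili knockout, 48.4% would be expected to be seen in the Hen1 knockout. At least 10 reads were reached by 41 sequences in the Mili knockout and by 31043 in the Hen1 knockout. Of the pulled-down long fragments, 62.0% and 88.8% were seen. Of the 35851 other pulled-down sequences without a transcript match, 3.38% and 66.4% were seen. Most of these were thus missing from the Mili knockout too, and their 55575 reads there came from 1210 sequences.

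The fold gap widened with the strength of the pull-down. Transcript-matched sequences with at least 20 wild type reads were binned by the ratio of pull-down to wild type level, a measure in which neither knockout entered. The 190 sequences with a ratio under 0.1 were 2.60-fold higher in RPM in the Mili knockout. That is less than the 4.63-fold of microRNA reads, so per microRNA read they were lower there. From 0.1 to 0.5 the level was 30.5-fold lower, from 0.5 to 1 it was 152-fold lower, from 1 to 2 it was 530-fold lower and from 2 to 5 it was 804-fold lower. The 338 sequences with a ratio of 5 or more had 14 reads in the Mili knockout and 61654 in the Hen1 knockout, 1809-fold lower (1078 to 3310). Sequences without a Mili knockout read were 47.9% of those under 0.1 and 97.0% to 98.4% of each bin above it. Above 0.1 that share did not rise steadily with the ratio, so the widest folds rest on few Mili knockout reads.

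Sequences printed here are the most abundant Hen1 knockout piRNA-like sequence of a gene with many pulled-down reads, with the other lengths that begin at the same base. They show how the 3′ ends of such molecules vary without Hen1. Since Hen1 knockout reads chose them, their counts in the knockouts are a description. Capitals mark base 1, base 10 and any untemplated base at the 3′ end, and T stands for U. All positions are GRCm38. The Abl2 sequence lies in the 3′ UTR of a kinase gene at chr1:156646324-156646349 on the plus strand, the Trim71 sequence in the 3′ UTR of a stem cell RNA-binding protein gene at chr9:114510634-114510660 on the minus strand, and the Dnmt3a sequence in the 3′ UTR of a DNA methyltransferase gene at chr12:3911361-3911386 on the plus strand.
Abl2, 26 nt: TagagatctGcactttgtagttgaag
Abl2, with T: TagagatctGcactttgtagttgaagT
Abl2, with TA: TagagatctGcactttgtagttgaagTA
Trim71, 27 nt: TaaaaatttTgtagaacaggacaaccc
Trim71, 26 nt: TaaaaatttTgtagaacaggacaacc
Dnmt3a, 27 nt: TgaagatttGtgaagatctgtggccct
Dnmt3a, 26 nt: TgaagatttGtgaagatctgtggccc
Dnmt3a, 25 nt: TgaagatttGtgaagatctgtggcc

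None of these 8 forms had a read in the Mili knockout. The Abl2 form of 26 nt had 614 reads in the Hen1 knockout, its form with an added T had 135 and the form with TA had 21. In the deeper pull-down those 3 forms had 2047, 35 and 0 reads. The Trim71 form of 26 nt, 1 base short, held 20.5% of the reads at its start in the Hen1 knockout and 1.85% in the pull-down. The Dnmt3a forms of 27, 26 and 25 nt had 36, 270 and 34 reads in the Hen1 knockout and 233, 521 and 8 in the pull-down.

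Other genes of this kind had clean or mixed ends. These 3 sequences come from D10Wsu102e, a gene of little known function (3′ UTR, chr10:83381475-83381501, plus), from Fth1, the ferritin heavy chain (5′ UTR, chr19:9982739-9982765, plus), and from Gm38246, a non-coding RNA (chr3:51103881-51103909, plus).
D10Wsu102e, 27 nt: TaactcgagAgaaaaccacacctgatg
Fth1, 27 nt: TtcaacagtGcttgaacggaacccggt
Gm38246, 29 nt: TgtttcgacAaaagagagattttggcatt

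The Gm38246 form of 29 nt had 4819 reads in the Hen1 knockout and 0 in the Mili knockout, and it held 86.7% of the reads at its start in the Hen1 knockout and 87.3% in the pull-down. That end showed no shift. The Fth1 form had 1669 and 0 reads and the D10Wsu102e form 357 and 0. Such starts were taken from 16 genes, the 12 with the most pulled-down reads and Piwil2, Dnmt3a, Mov10l1 and Mael. With the start of each gene taken instead from its most abundant pulled-down sequence, a choice that neither knockout entered, 9 of the 16 starts were the same. At those 16, reads of 23 to 32 nt numbered 54318 in the Hen1 knockout and 9 in the Mili knockout. The Tmem245 start, whose bases are shared by transcripts of many genes, had 35989 and 8 of these, Gm38246 had 10518 and 1, and the other 14 had 0 in the Mili knockout. At 12 of the 16 starts chosen in the Hen1 knockout the mean length was shorter in the Hen1 knockout than in the pull-down.

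By source gene, piRNA-like reads were lower in the Mili knockout nearly throughout. There were 2264 genes with at least 200 such reads in both libraries together, counting reads in the sense of 1 gene. At 0.5 added to each count, 2241 of them (99.0%) were at least 2-fold lower in the Mili knockout and 10 (0.442%) at least 2-fold higher. The median was 184-fold lower, or 54.6-fold with the 1028 genes without a Mili knockout read set to the floor of 3 reads. Fewer than 20 Mili knockout reads came from 2213 of them. The limit was passed by 2227 through Hen1 knockout reads alone, and only 12 genes had 200 Mili knockout reads, so these shares describe genes that mostly entered through the deeper library in which they are high. With the limit set on untreated wild type reads instead, a choice made after the data were seen, 1275 genes entered, of which 1257 (98.6%) were at least 2-fold lower and 10 (0.784%) at least 2-fold higher. Summed over the 2264 genes, 27006 reads stood against 2328969, 35.4-fold lower (35 to 35.9).

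The 12 genes with the most pulled-down reads had 1 to 38 reads each in the Mili knockout and 12359 to 70814 in the Hen1 knockout. D10Wsu102e had 38 and 70814 reads, or 7.9 and 6051 RPM, 766-fold lower (558 to 1082). Fth1, which stores iron, had 30 and 17468 reads, 239-fold lower (168 to 355), the smallest gap of the 12. Gm38246 had 16 and 44357 reads, 1139-fold lower (701 to 1993). Tmem245, a membrane protein gene, had 10 and 14767 reads and was 607-fold lower. Cbx5, the heterochromatin protein HP1 alpha, had 10 and 14211 reads and was 584-fold lower. Fbxo41, an F-box gene, had 7 and 12903 reads.

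Others of the 12 had 3 Mili knockout reads or fewer. Rab11fip4, a Rab11 effector, had 3 and 13024 reads. Eif4ebp2, a repressor of cap-dependent translation, had 2 and 12359 reads. Abl2 had 1 and 28947 reads, 11893-fold lower (2134 to 469762), Gabpb2, a transcription factor subunit, had 1 and 16417, and Trim71 had 1 and 13920. All 12 were thus far lower in the Mili knockout, and the widest intervals belong to the genes with 1 read.

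**Figure D3:**
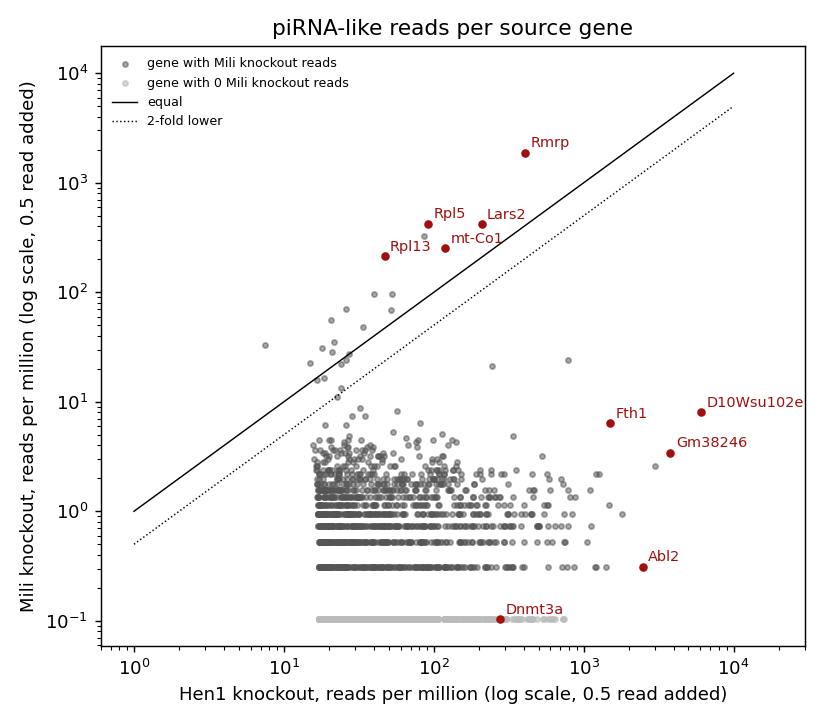
Each point is 1 of 2264 source genes, with piRNA-like RPM in the Hen1 knockout (x) and the Mili knockout (y), 0.5 read added, both on log scales. Nearly all points lie below the dotted 2-fold line, and 1028 genes lie on the bottom row with 0 Mili knockout reads, while Rmrp, Rpl5, Rpl13, Lars2 and mt-Co1 lie above the line of equality.

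The gap differed between parts of the mRNA. Reads of 1 protein-coding gene that lie in the 3′ UTR numbered 7304 in the Mili knockout and 1909378 in the Hen1 knockout, 107-fold lower (105 to 110). In coding sequence they numbered 11662 and 517237, 18.2-fold lower (17.9 to 18.6), and in the 5′ UTR 2040 and 71300, 14.4-fold lower (13.7 to 15.0). The Mili knockout reads thus lay more in coding sequence than in 3′ UTRs, and the Hen1 knockout reads more in 3′ UTRs. Reads that match 20 genes or more, as repeats do, numbered 936 and 138504 and were 60.8-fold lower. Sense reads of lncRNA genes were 10.3-fold lower with Rmrp and 42-fold lower (40.5 to 43.6) without it, those of pseudogenes 52.0-fold and antisense reads 16.4-fold.

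Genes of the piRNA pathway are themselves sources of piRNA-like reads. A list of 25 had 62 such reads in the Mili knockout and 5865 in the Hen1 knockout. Of the list 5 genes had enough reads, and all 5 were at least 2-fold lower, which is near the share over all genes. No Mili knockout read was found for 14 of the 25, most of them below the read limit. Of the 5 that passed it, 4 had none, beside 1028 of all 2264 genes (45.4%). Dnmt3a, one of the DNA methyltransferases, had 0 and 3258 reads and was at least 446-fold lower against the floor of 3 reads. Piwil2, which encodes MILI, had 0 and 600 reads, at least 82.2-fold lower. Mael, a nuage protein gene, had 0 and 320 reads, at least 43.8-fold lower, and Wdr77, a partner of the arginine methyltransferase Prmt5, had 0 and 237, at least 32.5-fold lower.

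Mov10l1, the helicase of piRNA precursors, had 8 and 291 reads, 14.9-fold lower (7.48 to 34.9). Below the read limit, Henmt1 had 0 and 78 reads, and Gpat2, a mitochondrial outer membrane protein gene, had 0 and 150. Ddx4, the Vasa helicase, had 12 and 85 reads, 2.91-fold lower (1.58 to 5.85), and Asz1, a nuage protein gene, had 13 and 63. Mybl1, the transcription factor of pachytene piRNA genes, had 8 and 5 reads and was the member with more reads in the Mili knockout. These are piRNA-like pieces of the transcripts and not the level of the mRNAs.

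The 23 genes that were not 2-fold lower in RPM included Rmrp, ribosomal protein genes and mitochondrial genes. Rmrp had 9042 reads in the Mili knockout and 4769 in the Hen1 knockout, 4.61-fold higher (4.46 to 4.78) in RPM and equal in microRNA RPM, at 5534 and 5556. Rpl5, whose introns hold snoRNAs, had 2037 and 1075 reads, also 4.61-fold higher, and 1 sequence gave 95.7% of its Mili knockout reads. Rpl13 and Rpl7a, ribosomal protein genes with snoRNAs in their introns, were 4.53-fold and 4.38-fold higher. Tmem38b, an ion channel gene, had 1559 and 999 reads, and the most abundant rRNA sequence of the Mili knockout also matches it. Lars2, the mitochondrial leucyl-tRNA synthetase, had 2008 and 2436 reads, 2.01-fold higher (1.89 to 2.13) in RPM and 2.31-fold lower (2.18 to 2.45) in microRNA RPM. Of all 2264 genes, 2256 were at least 2-fold lower in microRNA RPM and none was at least 2-fold higher, so these higher levels rest on the scaling.

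Of 31 ribosomal protein genes tested 28 were at least 2-fold lower, and Rpl5, Rpl13 and Rpl7a were the 3 at least 2-fold higher. All 10 histone genes tested were lower, near the 99.0% of all genes, with 47 reads against 5963, 52.1-fold (39.1 to 71.0). Of 7 mitochondrial genes none was 2-fold lower in RPM and 2 were at least 2-fold higher. These were mt-Co1, a cytochrome oxidase subunit, with 1216 and 1386 reads, and mt-Atp8, an ATP synthase subunit, with 459 and 469. In microRNA RPM mt-Co1 was 2.17-fold lower and mt-Atp8 1.94-fold lower. Genes were also grouped by the ratio of their pull-down to wild type level. All 1381 genes at 2 or more were at least 2-fold lower in the Mili knockout, as were 810 of 815 from 1 to 2 and 50 of 68 below 1. The summed level of the 68 had a Mili to Hen1 ratio of 0.998 (0.981 to 1.01). Of the 23 genes that were not lower 18 were thus below 1 and 5 above it, Hspa8, a chaperone gene, Snrpb, a splicing protein gene, Eif5, a translation factor gene, 1110038B12Rik and Gm48617, which are named after their values were seen.

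The sequences that stayed in the Mili knockout can be set beside a strongly pulled-down one that did not. The first is the main Rmrp sequence, the next the main Rpl5 sequence, and the last, which matches 10 genes, the histone H3 gene Hist1h3a among them, is among the 5 most frequent pulled-down sequences. Capitals mark base 1 and base 10.
Rmrp, 30 nt: AgctcgctcTgaaggcctgtttcctaggct
Rpl5, 29 nt: TgccaatgaTgacaccacactaactgagc
Histone H3, 27 nt: TtcaagaccGacctgcgcttccagagc

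The Rmrp sequence had 7063 reads without Mili, 3610 without Hen1 and 61 in the pull-down, and it made up 13.0% of the transcript-matched piRNA-like reads of the Mili knockout. The Rpl5 sequence had 1949, 1031 and 8 reads. The histone H3 sequence had 0 and 717 reads in the knockouts and 69249 in the pull-down, so it was at least 98.2-fold lower in the Mili knockout. A level of 10 reads was reached by 363 transcript-matched piRNA-like sequences of the Mili knockout and by 46492 of the Hen1 knockout. The 180 that did so in both were 49.6% of the first set and 0.387% of the second. Of microRNA sequences 1750 reached 10 reads in each library and 1263 did so in both, 72.2%.

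The first-base preference of piRNAs was strong in the Hen1 knockout and missing from the Mili knockout. Of transcript-matched piRNA-like reads, 84.5% began with T (uridine in the RNA) in the Hen1 knockout, near the 87.5% of the pull-down, and 25.1% did so in the Mili knockout, where 41.2% began with A. Without the 8 genes with the most Mili knockout reads the shares were 25.7% and 84.7%. Reads that share their first 20 nt with a pulled-down sequence, leaving out Rmrp, began with T in 47.1% and 93.3%. Such reads of the pull-down itself began with T in 94.7%. Since the match includes the first base, these shares follow from which pulled-down sequences were matched and are no separate measure of the preference. An A at position 10 was found in 19.5% of transcript-matched reads of the Mili knockout and 30.9% of the Hen1 knockout, or 25.2% and 30.9% without those 8 genes. In long fragments the first-base shares were alike, 30.3% and 31%.

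The Hen1 knockout kept piRNA 5′ ends with shorter and tailed 3′ ends, and in the Mili knockout too few of them were left for a profile of its own. At 5′ ends of pulled-down sequences, 2636560 Hen1 knockout reads had a mean length of 27.13 nt (SD 2.14) and a most frequent length of 27 nt. In the pull-down the mean was 28.05 nt and the most frequent length 28 nt. Of the Hen1 knockout reads 48.2% were shorter than the main form of the pull-down, 35.5% were the same and 16.3% longer. The shares were 22.6%, 55.0% and 22.4% in the pull-down itself, whose reads set the main form. In untreated wild type, which did not set it, they were 23.2%, 50.7% and 26.1%. Hen1 knockout reads were short by 1 base in 18%, by 2 in 11.9% and by 3 or more in 18.3%.

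In the Mili knockout 15965 reads shared such a 5′ end, and Rmrp gave 57.3% of them. The mean was 29.10 nt with Rmrp and 27.70 nt (SD 4.17) over the 6813 reads without it, of which 38.5% were shorter, 21.4% the same and 40.1% longer than the main form. Tails of up to 3 untemplated bases were on 16.4% of Hen1 knockout reads at these 5′ ends (357647 of 2185901) and on 2.77% of Mili knockout reads (344 of 12401). Without Rmrp the shares were 16.4% and 9.37% (317 of 3382, 8.41% to 10.4%), so Rmrp moved the Mili knockout value by over 3 times. Untreated wild type had 5.37%. The pull-down had 1.55%, counted only over sequences with at least 10 pull-down reads. The other libraries had no such limit, so the pull-down value is not a like measure. Of the tails of 1 base in the Hen1 knockout over all transcript-matched 5′ ends, 64.8% were T and 31.1% A. Counted over all those 5′ ends, pulled down or not, the tailed shares were 17.4% in the Mili knockout and 18% in the Hen1 knockout, or 20.3% and 18% without Rmrp.

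Ping-pong pairs were frequent in the Hen1 knockout and not seen above the other overlaps in the Mili knockout. Of overlaps of 1 to 20 nt between sense and antisense 5′ ends on transcripts, weighted by reads, 33.5% were 10 nt in the Hen1 knockout, 9.55 times the mean of the other lengths. In the Mili knockout 4.64% were 10 nt, 0.924 times that mean. With each position counted once the shares were 7.56% and 5.02%, or 1.55 and 1.0 times the mean. The Hen1 knockout had 39263 pairs of positions at 10 nt on 2774 transcripts, and its 10 strongest pairs held 25.5% of the weight. The Mili knockout had 60 pairs on 26 transcripts, so a weak signal was not detectable at this number.

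**Figure D4:**
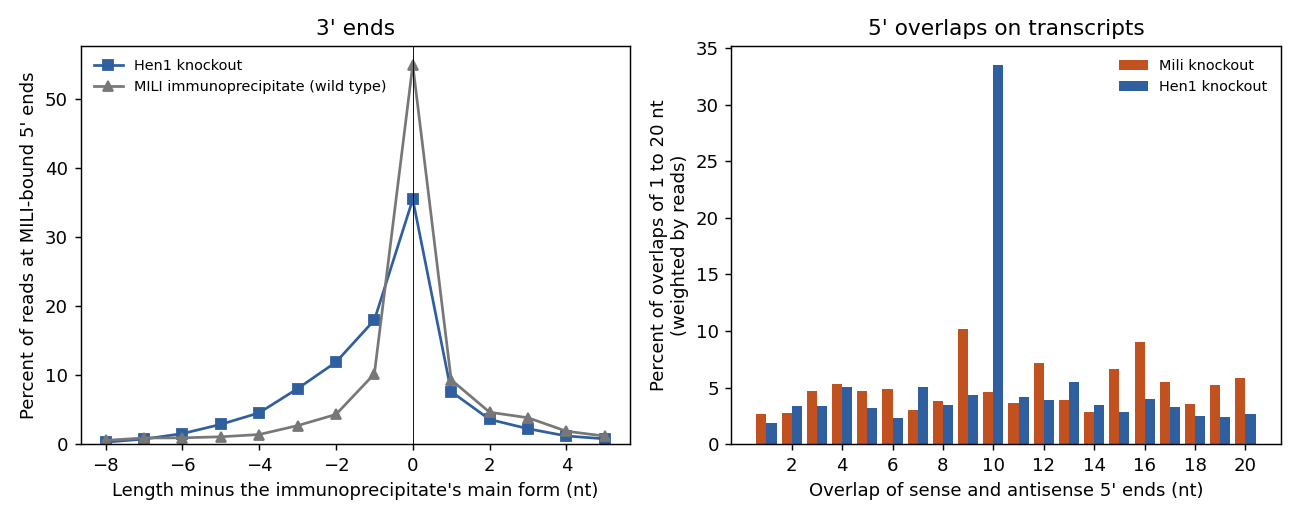
Left, percent of reads at MILI-bound 5′ ends (y) by length minus the main pulled-down form in nt (x), for the Hen1 knockout and the pull-down. Right, percent of sense to antisense 5′ overlaps (y) of 1 to 20 nt (x), weighted by reads, 1 bar per library: the Hen1 knockout bar at 10 nt is 33.5% and the Mili knockout bar 4.64%.

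microRNAs made up 34.0% of the Mili knockout reads (1633857) and 7.34% of the Hen1 knockout reads (858421), a 4.63-fold higher share in a library with few piRNAs. Among themselves, microRNA arms differed little. In microRNA RPM, with 188 arms at 200 reads or more over both libraries, the median Mili to Hen1 ratio was 0.899. Of these, 6 arms (3.19%) were at least 2-fold lower and 1 (0.532%) at least 2-fold higher. Mature sequences of arms named here, from RefSeq (GRCm38.p6), have the seed, bases 2 to 8, in capitals. The first 3 are the most abundant and come from the X-linked germ line cluster, and the last 3 are members of the 2-fold sets.
miR-741-3p: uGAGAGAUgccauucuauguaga
miR-871-3p: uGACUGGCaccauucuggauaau
miR-470-5p: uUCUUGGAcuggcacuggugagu
miR-3471: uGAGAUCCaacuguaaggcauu
miR-294-3p: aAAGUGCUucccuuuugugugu
miR-346-5p: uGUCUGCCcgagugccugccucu

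The arms with the most reads were nearly even. miR-741-3p (chrX:66796809-66796831, minus) stood at 171109 microRNA RPM in the Mili knockout and 156224 in the Hen1 knockout, a ratio of 1.10. miR-871-3p (chrX:66810438-66810460, minus) stood at 154565 and 132543 and miR-470-5p (chrX:66813995-66814017, minus) at 61926 and 55892. Of the 10 most abundant arms, miR-880-3p of the same cluster had the largest ratio, 1.36, with 39620 and 29169 microRNA RPM, and miR-183-5p, frequent in spermatogonia, stood at 40562 and 32765. Mean arm length was 22.42 nt in the Mili knockout and 22.40 nt in the Hen1 knockout, and 62.8% and 62.1% of arm reads were the exact mature form.

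miR-3471 stood apart from the rest. This arm (chr4:10845585-10845606, minus) had 7 reads in the Mili knockout and 1140 in the Hen1 knockout, 4.28 and 1328 microRNA RPM, 310-fold lower (150 to 773). In the MILI pull-down it had 952 reads and in untreated wild type 474. Its level was higher in the pull-down in microRNA RPM, 4452 against 338, and lower in RPM, 37.7 against 64.7, so that order rests on the scaling. The next arms in this direction had far smaller differences. miR-294-3p, of the embryonic stem cell miR-290 cluster (chr7:3220691-3220712, plus), was at 104 and 325 microRNA RPM, 3.12-fold lower (2.57 to 3.80). miR-5121 was 2.64-fold lower, miR-290a-5p 2.46-fold, miR-292a-5p 2.33-fold and miR-350-3p 2.30-fold. miR-346-5p (chr14:34894624-34894646, plus) was the arm at least 2-fold higher, at 613 and 302 microRNA RPM, 2.03-fold (1.77 to 2.34).

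**Figure D5:**
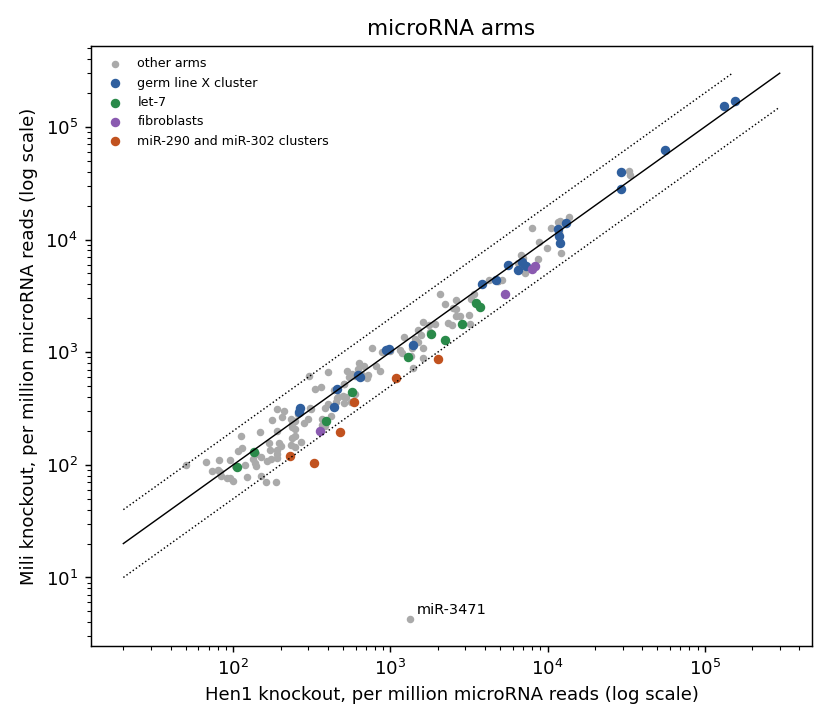
Each point is 1 of 188 microRNA arms, in microRNA RPM in the Hen1 knockout (x) and the Mili knockout (y), on log scales, with the line of equality and dotted 2-fold lines. Arms lie along the line over their whole range except miR-3471, at 4.28 in the Mili knockout and 1328 in the Hen1 knockout.

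Marker lists describe which cells the libraries came from. Germ line X cluster arms held 539743 microRNA RPM in the Mili knockout and 492853 in the Hen1 knockout, and of 24 arms tested none was 2-fold apart, with a median ratio of 1.03. Over all 188 arms 6 were 2-fold lower and 1 was 2-fold higher, so a list without any is near the background. Of the same 188 arms, 120 had a ratio below 1. The 10 arms of undifferentiated spermatogonia had a median of 0.824, from 0.551 for miR-146a-5p to 1.36 for miR-182-3p, and none was 2-fold apart. Their summed level went the other way, at 87697 and 83014 microRNA RPM, 1.06-fold higher in the Mili knockout (1.05 to 1.07). The list of fibroblasts, the feeder cells, stood at 14816 and 22276 microRNA RPM, 1.5-fold lower in the Mili knockout, with all 4 tested arms below 1 and a median of 0.645. The let-7 family stood at 11647 and 16641, 1.43-fold lower, with all 10 arms below 1 and a median of 0.742. The part of feeder cells in any difference between the libraries was not tested.

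The miR-290 and miR-302 clusters, known from pluripotent cells, stood at 2323 and 4925 microRNA RPM, 2.12-fold lower in the Mili knockout. Of 6 arms tested 3 were at least 2-fold lower, all 6 were below 1, and the median was 0.473, beside 0.899 for all arms. The Dlk1-Dio3 cluster, an imprinted locus, had 15 of 19 arms below 1, beside 120 of 188 over all arms, and a median of 0.822. The miR-17 and miR-106b clusters, linked to proliferation, had 12 arms tested and a median of 0.987. Markers of other cells were low in both libraries. Blood arms summed to 629 and 729 microRNA RPM, miR-126a-3p of endothelium to 315 and 190, meiotic and later germ cell arms to 340 and 312, and muscle arms, of which none was tested, to 25.1 and 34.9.

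Fragments of annotated structural RNAs took larger shares in the Mili knockout, but less per microRNA read. The source genes of the long fragments were not assigned, so any pieces of structural RNAs among them are not counted in these classes. snRNA and snoRNA reads made up 5.83% and 1.65%, 3.53-fold higher, rRNA reads 3.33% and 0.863%, 3.86-fold higher, and mitochondrial rRNA and tRNA reads 3.05% and 1.42%, 2.15-fold higher. A 20-base stretch of the Mir5099 hairpin, the most frequent sequence of the Hen1 knockout and counted apart from microRNAs, marked 14.3% and 8.57% of reads. Each of these classes was lower in the Mili knockout when set against microRNA reads, with ratios of 0.762 for snRNA and snoRNA, 0.832 for rRNA, 0.464 for mitochondrial RNA and 0.360 for Mir5099. The directions of these classes therefore rest on the scaling, and those of transcript-matched piRNA-like reads do not, at 28.6-fold lower per read and 132-fold lower per microRNA read.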

How the data were processed

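Each file lists distinct sequences with raw read counts, made by the authors before they were deposited. The submitters' processing notes name mm10 and Bowtie, without a Bowtie version. How adapters were trimmed and lengths filtered is likewise not given. Spike-ins were not identified, so no absolute amounts were derived. Sequences of 18 to 35 nt were matched exactly to GENCODE M21 transcripts (GRCm38) with bwa 0.7.19-r1273, and to RefSeq hairpins and mature microRNAs. No genome was used, and 13 of 430 annotated tRNA genes could be read, so many tRNA pieces are unclassed and intergenic piRNAs count as without transcript match. Long fragments share 16 bases with any of 148 unclassed, unmatched sequences of 32 to 35 nt with at least 200 wild type reads. Arms were reads starting within 2 nt of a mature start. Ratios have exact conditional binomial 95% intervals and shares Clopper-Pearson intervals. Source genes and arms needed 200 reads in both libraries together, 0.5 was added to each count, and calls were at 2-fold. For folds given as at least, and for the median of 54.6-fold, a Mili knockout count of 0 was set to a floor of 3 reads. Calls did not use this floor.

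Named genes were the 12 with the most 1-gene reads in the pull-down, the 8 with the most in the Mili knockout, the 8 highest ratios and the piRNA pathway list. Named arms were the 10 most abundant, those past 2-fold and members of the lists. Long fragments, values without Rmrp or without 8 genes, the wild type read limit and starts chosen in the pull-down were added after the data were seen. Members and lists were chosen with earlier results of these data known. The counting was checked on simulated data. Tables were made in Python 3.11.15 with pandas 2.3.3, intervals with scipy 1.17.1 and figures with matplotlib 3.10.9. Alternatives covered scaling, read limits, fold rules, match rules and counting each sequence once. One gene that the rule for named genes selects is not reported here.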

Additional observations from a re-analysis of the deposited data

How the results depend on the processing

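The direction of the pooled piRNA-like and MILI-bound totals held under every scaling and rule tried, and that of most other classes turned with the scaling. Ratios are Mili over Hen1 knockout, and the cause of each move was not tested. Within these 2 totals the long fragments turned per microRNA read, from 1.14 to 0.247 and from 1.07 to 0.232. Per microRNA read the ratio was 0.0669 for 25 to 31 nt (0.310 as reported), 0.530 for 20 to 24 nt, 0.0459 for piRNA-like reads and 0.0711 for the MILI-bound set. Outside the Mir5099-like sequences the ratios were 0.325, 3.01, 0.227 and 0.351, and 4.94 for microRNAs. Per snRNA and snoRNA read they were 0.0878, 0.695, 0.0602, 0.0933 and 1.31. Leaving out the 10 sequences with most reads in either library, they were 0.378, 2.93, 0.256, 0.389 and 5.29, and with each sequence counted once 0.446, 2.54, 0.380, 0.249 and 7.92. With all lengths the windows gave 0.294 and 2.33. piRNA-like reads gave 0.177 at 26 to 30 nt, 0.194 with 1 mismatch (microRNAs 4.51), 0.116 outside the long fragments and 0.035 if also transcript-matched. The MILI-bound set gave 0.404 at 50 pulled-down reads, 0.465 by shared first 20 nt, 0.0186 if transcript-matched and 0.00339 without Rmrp.

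Classes higher per read turned lower per microRNA read: rRNA 0.832, mitochondrial RNA 0.464, snRNA and snoRNA 0.762, annotated tRNA 0.265, other small RNA 0.423, Mir5099-like 0.360 and long fragments 0.266. Per snRNA and snoRNA read mitochondrial RNA turned to 0.609, tRNA to 0.348, other small RNA to 0.555, Mir5099-like to 0.473 and long fragments to 0.349. Scaled to all reads, the microRNA list medians turned to 3.82 (undifferentiated spermatogonia), 2.99 (fibroblasts), 3.76 (blood), 3.44 (let-7), 4.57 (miR-17 and miR-106b clusters), 2.19 (miR-290 and miR-302 clusters) and 3.81 (Dlk1-Dio3). The miR-17 and miR-106b median was 1.10 with the arm median set to 1 and 1.05 at 50 reads.

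First base T in the Mili knockout was 28.8% over all reads of 25 to 31 nt, 30% in piRNA-like reads, 27.4% by distinct sequence and 25.1% if transcript-matched. In the Hen1 knockout it was 75.4%, 77.5%, 78.3% and 84.5%. A at position 10 was 19%, 17.1%, 24.2% and 19.5% against 28.5%, 28.8%, 30% and 30.9%. Source genes lower numbered 6470 at 50 reads, 497 at 1000 reads and 1257 with the limit on wild type reads. Those higher numbered 0 per microRNA read, 4 at 4-fold, 16 at 50 reads, 6 at 1000 reads and 16 with shared reads divided. Scaled to all reads, 1 microRNA arm was lower and 183 higher. Arms lower numbered 1 at 4-fold, 18 at 50 reads and 120 with no minimum, and arms higher 2 with the median set to 1, 0 at 4-fold, 7 at 50 reads, 87 with no minimum and 2 with 0.1 added. Mean length at MILI-bound 5′ ends was 29.6 nt at 50 pulled-down reads and 27.7 nt without Rmrp in the Mili knockout, and 27.2 nt at 50 and 26.9 nt for transcript matches in the Hen1 knockout. Overlaps at 10 nt counted once per position were 5.02% and 7.56%, tails of 1 base only 9.06% and 13.2%, and tails without Rmrp 20.3% and 18%. Of 71 alternatives for single classes and lists, 18 were counted as unchanged, 32 as moved and 21 as reversed. For list medians, unchanged did not mean within counting error, as the blood median went from 0.812 to 0.572 at 50 reads.

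No paired analysis was possible because each group has 1 library. Differences between clones, library preparations and knockouts cannot be told apart, and genes with few Mili knockout reads have wide intervals.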
